A study of Mus musculus with 2 samples.

Results

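The 10 genes described here form the vascular endothelial growth factor (VEGF) and angiopoietin axis with its endothelial target cell. They are the ligand genes Vegfa, Vegfb, Angpt1 and Angpt2, the receptor genes Kdr, Flt1 and Tek, and the endothelial junction genes Pecam1, Cdh5 and Cldn5. They were chosen by name, and each of the 10 was found once among the 55536 annotated genes. RNA was measured by total RNA sequencing in gastrocnemius, the main muscle of the calf, from male B6CASTF1/J mice, which are F1 hybrids between C57BL/6J and CAST/EiJ. They were 18 to 20 months old, and the labels name no treatment. The series held 1 group of 2 libraries, replicate 2 and replicate 1, each from 300 ng of RNA with added spike-ins, so no conditions could be compared. The labels number the males separately but give both libraries the same donor identifier, so every SD below measures only the spread between these 2 samples, which may be technical, and the p-values cover counting error alone. The whole muscle was sequenced, so for every gene here fewer cells of a type and less RNA per cell cannot be told apart.

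VEGF-A is secreted by many cells of a tissue, in muscle largely by the fibres, and acts on endothelial cells through VEGFR2, the product of Kdr. VEGFR1, the product of Flt1, binds VEGF-A and VEGF-B tightly and signals weakly, and its soluble form traps the ligand outside the cell. Angiopoietin 1 activates the receptor TIE2, the product of Tek, and keeps vessels quiescent, while angiopoietin 2 can block that signal and is made mainly by endothelial cells under activation. PECAM1, VE-cadherin (Cdh5) and claudin 5 (Cldn5) hold neighbouring endothelial cells together.

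The libraries held 44919441 expected counts in replicate 2 and 40795740 in replicate 1. In both, 15 genes of the fast fibre sarcomere were abundant, with a summed 96847 and 126572 TPM (transcript abundance, a level per length scaled to a fixed total per library). The libraries differed beyond the axis. Replicate 2 had calls on its side for all 15 slow sarcomere genes examined (median log2 ratio 3.31) and for 9 of 12 immediate early genes (median 1.76), beside 4.4% of all genes tested. The calls are those of the counting test described with the members' ratios. Of the 15 fast sarcomere genes, 2 had calls toward replicate 2 and 0 toward replicate 1, beside 4.4% and 1.66% of all genes. The median log2 ratio of that list was −0.53. The bearing of these differences on the genes below was not tested. The noncoding RNA Rn7s took 22.7% of TPM in replicate 2 and 28.7% in replicate 1, which lowers every other TPM value, so differences between the libraries were taken from scaled counts and TPM was used for levels.

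The VEGF ligands were the most abundant members of the axis. Vegfa (ENSMUSG00000023951.17, mm10 chr17:46016993-46032369, minus strand), the main angiogenic ligand, stood at 86.1 TPM in replicate 2 and 45.7 TPM in replicate 1 (mean 65.9 ± 28.5, SD, n = 2), from 6167 and 2691 expected counts. Vegfb (ENSMUSG00000024962.13, chr19:6982473-6987651, minus strand), a ligand of Flt1 linked to fatty acid handling in muscle, stood at 86.7 and 61.8 TPM (mean 74.2 ± 17.7, SD, n = 2), from 3298 and 2155 counts. By mean TPM, Vegfb ranked 703 and Vegfa 802 among the 10063 nuclear protein-coding genes that reached 1 TPM in each library. Both genes were higher in replicate 2, and their ranges over the 2 libraries overlapped. Within each library Vegfb was above Vegfa, in replicate 2 by less than 1 TPM. Short transcripts with no annotated coding sequence made up 29.9 and 19.4 TPM of Vegfa in replicates 2 and 1. For Vegfb such transcripts made up 0.17 and 0.09 TPM.

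The angiopoietin ligands lay far lower. Angpt1 (ENSMUSG00000022309.9, chr15:42424723-42676977, minus strand), the TIE2 agonist, had 4.54 TPM in replicate 2 and 2.91 TPM in replicate 1, from 596 and 376 counts. Of its exon bases 14.2% lie opposite exons of the gene Gm17473, and the sources used here do not say whether counting used strand. The deposited posterior SD of its gene count was 0 in both libraries, the value listed where no reads are shared out between genes. Angpt2 (ENSMUSG00000031465.6, chr8:18690263-18741562, minus strand), its context-dependent antagonist, had 0.50 and 0.48 TPM, from 59 and 52 counts. Angpt2 was the lowest of the 10 genes and the only one under 1 TPM. The TPM ratio of Angpt1 to Angpt2 was 9.08 in replicate 2 and 6.06 in replicate 1. In the authors' second quantification of the same reads it was 5.59 and 5.56. There a noncoding Angpt2 transcript held 44.7% of the gene's TPM in replicate 2, from 4.47 estimated counts. On scaled counts of that quantification, the log2 ratio of replicate 2 to replicate 1 was 0.50 for Angpt1 and −0.08 for Angpt2. The difference between the libraries was thus absent there in TPM. In counts it rested on 63 and 58.9 estimated counts of Angpt2 in replicates 2 and 1, and no interval was computed for it.

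Of the receptors, Flt1 (ENSMUSG00000029648.13, chr5:147561604-147726011, minus strand) had the highest level in both libraries, with 12.1 TPM in replicate 2 and 10.1 TPM in replicate 1 from 2645 and 1858 counts (mean 11.1 ± 1.39, SD, n = 2). Kdr (ENSMUSG00000062960.10, chr5:75932827-75978458, minus strand), the main signalling receptor, had 8.24 and 3.74 TPM from 1644 and 682 counts. Tek (ENSMUSG00000006386.15, chr4:94739289-94874976, plus strand) had 5.13 and 3.90 TPM from 759 and 520 counts. Kdr was above Tek in replicate 2 and below it in replicate 1, but in the second quantification both had 4.73 TPM in replicate 1. The 2 VEGF receptors were in unlike proportion in the libraries. Flt1 TPM was 1.47 times Kdr TPM in replicate 2 and 2.71 times in replicate 1.

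Cdh5 (ENSMUSG00000031871.9, chr8:104101625-104144511, plus strand), the adhesive cadherin of endothelial adherens junctions, had 17.0 TPM in replicate 2 and 13.2 TPM in replicate 1 from 2254 and 1622 counts (mean 15.1 ± 2.67, SD, n = 2). Pecam1 (ENSMUSG00000020717.19, chr11:106654217-106750628, minus strand), an adhesion molecule that platelets and leukocytes also carry, had 14.9 and 9.25 TPM from 1613 and 930 counts. Cldn5 (ENSMUSG00000041378.2, chr16:18776847-18778262, plus strand), the main endothelial tight junction claudin, had 4.17 and 1.85 TPM from 190 and 77 counts. Each of the 3 was higher in replicate 2. Relative to Cdh5, Cldn5 stood at 0.246 in replicate 2 and 0.140 in replicate 1, Kdr at 0.486 and 0.284, and Flt1 at 0.714 and 0.769, all as TPM ratios. Tek kept nearly the same proportion to Cdh5, 0.302 in replicate 2 and 0.296 in replicate 1. On scaled counts, Flt1 was 1.25-fold and Cdh5 1.22-fold higher in replicate 2. The lower Flt1 proportion of replicate 2 was thus seen in TPM and not in counts.

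**Figure D1:**
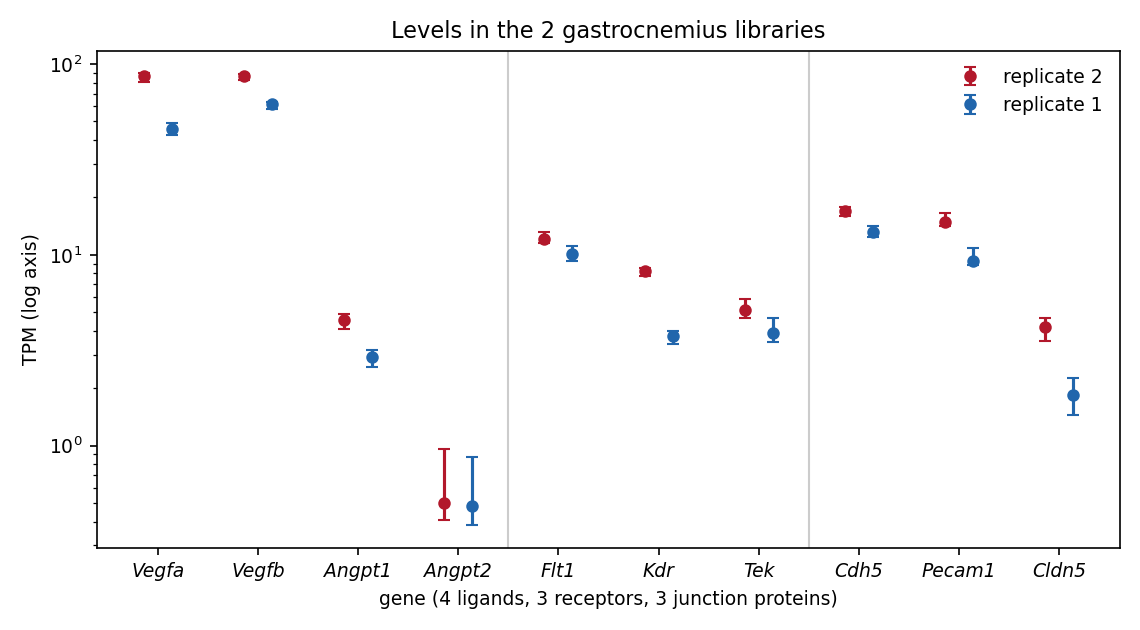
TPM (log axis) of each gene in replicate 2 (left point of each pair) and replicate 1, with bars for the authors' deposited posterior interval, which covers read assignment and sampling within 1 library. Vegfa and Vegfb lie above 45 TPM in both libraries, the receptor and junction genes lie between 1.85 and 17.0 TPM, and Angpt2 lies near 0.5 TPM.

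Ordered by mean TPM, the axis fell into 4 steps whose ranges over the 2 libraries did not touch. The VEGF ligands formed the top step, 4.37 times above Cdh5 at the head of the next. Cdh5 overlapped Pecam1 and Pecam1 overlapped Flt1, and Flt1 stood 1.86 times above Kdr. Kdr, Tek, Angpt1 and Cldn5 overlapped in turn, and Cldn5 stood 6.14 times above Angpt2. Within each library, Cdh5 was above Pecam1, Tek above Angpt1 and Angpt1 above Cldn5. Pecam1 and Flt1, like Kdr and Tek, changed places between the libraries. The second quantification did not show these changes. There Pecam1 was above Flt1 in both libraries (21.6 and 14.5 TPM in replicate 2, 15.2 and 13.4 TPM in replicate 1). Kdr and Tek stood level there in replicate 1, at 4.73 TPM.

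Between the libraries, Cldn5, Kdr and Vegfa were called higher in replicate 2 and no member was called higher in replicate 1. A call required a Benjamini-Hochberg adjusted p below 0.05 in a 2-sided exact binomial test of counts over all 14965 genes that averaged 10 counts or more, and at least a 2-fold difference. All 10 members passed that count filter. Of all genes tested, 4.4% had a call toward replicate 2 and 1.66% toward replicate 1, beside 3 and 0 of the 10 members. The test compares these 2 libraries and covers counting error only, and with 1 library on each side the difference has no replicate check. The scaled counts of Kdr were 2.12-fold higher in replicate 2 (95% counting interval 1.94 to 2.32, adjusted p = 6.84e-65, exact binomial test). Cldn5 was 2.17-fold higher on far fewer reads (1.66 to 2.87, adjusted p = 2.34e-08, exact binomial test), and its interval reached well below the 2-fold limit. Vegfa was 2.02-fold higher (1.93 to 2.11, adjusted p = 1.98e-216, exact binomial test), so its call rested on a value at the limit. The counting intervals of all 3 genes include 2-fold. The call of Cldn5 was lost in the authors' second quantification of the same reads, where its log2 ratio was 0.95 from 179 and 82 estimated counts.

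The other 7 genes did not reach 2-fold. Pecam1 had a ratio of 1.53 (1.41 to 1.66), Angpt1 of 1.40 (1.22 to 1.59) and Vegfb of 1.35 (1.28 to 1.42). Tek, Flt1 and Cdh5 lay between 1.22 and 1.29, with lower interval bounds of 1.15, 1.18 and 1.15. Angpt2 had a ratio of 0.999, and its interval of 0.677 to 1.48 leaves differences of that size undetectable at its depth. At any fold, 9 of the 10 members had an adjusted p below 0.05 toward replicate 2 in the exact binomial test, against 18.3% of all genes tested. That share was not matched for depth. Of the 14965 genes tested, 10305 averaged 100 counts or more, as did 9 of the members. The median log2 ratio was 0.46 over the members and 0.01 over all genes tested, of which 50% lay between −0.18 and 0.24. Ratios were above 0 for 9 of the 10 members and for 50.8% of all genes. At a limit of 1.5-fold Pecam1 was called too, so 4 members passed, beside 7.74% of all genes.

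**Figure D2:**
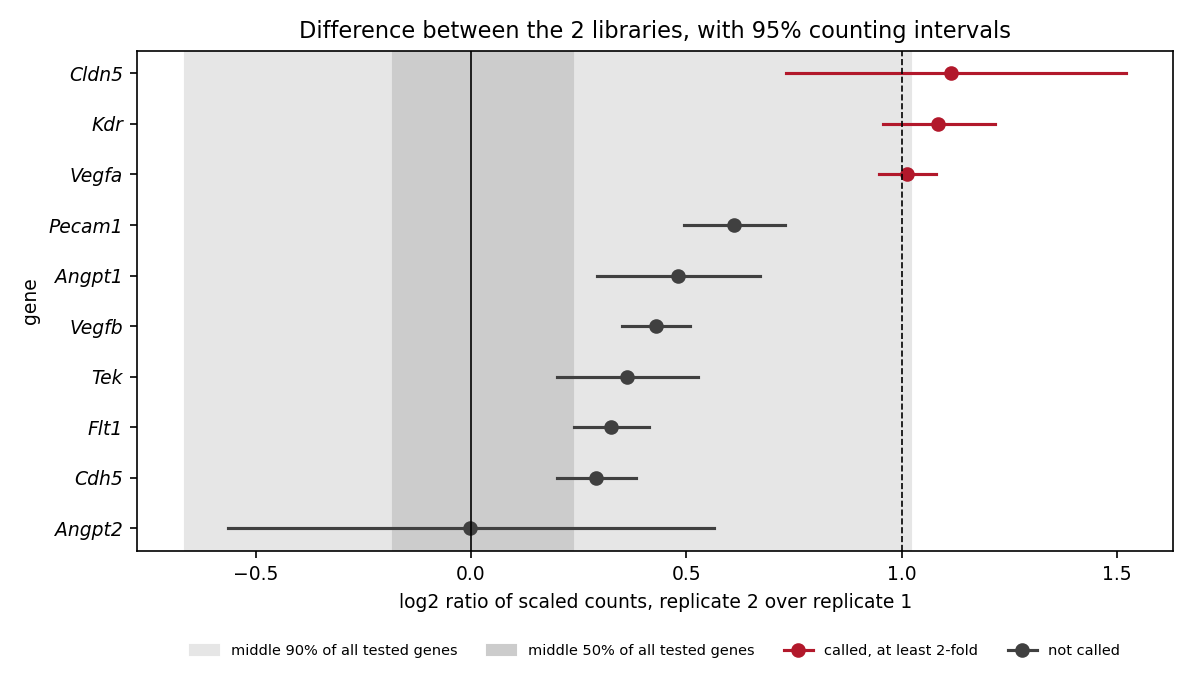
Log2 ratio of scaled counts, replicate 2 over replicate 1, for each gene, with 95% counting intervals; red marks called genes, the dashed line marks 2-fold, and shaded bands hold the middle 90% and 50% of all 14965 genes tested. Cldn5, Kdr and Vegfa lie just past the dashed line, 6 genes lie between 0.29 and 0.61, and Angpt2 lies at 0.

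The leading coding form of Vegfa RNA was the one that encodes VEGF164, a heparin-binding isoform of mice. Mouse isoforms of VEGF-A differ by exons 6 and 7, which encode stretches that bind heparan sulphate and, for exon 7, neuropilins. The ends of 3 forms are shown because the isoform shares turn on them. They run from exon 5 to the stop codon in GENCODE M21 transcripts (mm10 chr17:46018858-46024094, minus strand, exons joined), with exon 7 in capitals (chr17:46020991-46021122, 132 bases). Exon 6 (chr17:46022277-46022348, 72 bases) follows them, in capitals throughout, and stands in lower case ahead of exon 7 in the VEGF188 form.
VEGF164 end: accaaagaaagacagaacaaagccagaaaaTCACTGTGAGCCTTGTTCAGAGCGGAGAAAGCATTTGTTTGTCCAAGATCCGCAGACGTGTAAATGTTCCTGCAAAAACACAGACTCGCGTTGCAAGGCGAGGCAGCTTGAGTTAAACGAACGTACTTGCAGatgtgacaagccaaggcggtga
VEGF188 end: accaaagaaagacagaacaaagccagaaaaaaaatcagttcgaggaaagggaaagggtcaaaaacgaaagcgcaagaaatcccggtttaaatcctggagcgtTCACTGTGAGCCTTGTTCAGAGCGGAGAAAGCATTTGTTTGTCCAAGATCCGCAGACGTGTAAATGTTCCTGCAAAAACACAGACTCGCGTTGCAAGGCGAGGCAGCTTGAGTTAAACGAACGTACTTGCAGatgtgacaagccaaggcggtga
VEGF120 end: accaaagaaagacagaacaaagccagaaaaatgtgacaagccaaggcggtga
Exon 6: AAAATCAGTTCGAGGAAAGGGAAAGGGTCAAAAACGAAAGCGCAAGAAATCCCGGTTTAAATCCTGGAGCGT
Counted from the start codon that the forms share, the VEGF164, VEGF188 and VEGF120 transcripts hold 190, 214 and 146 codons, signal peptide included.

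In the first transcript table, forms with exon 7 and without exon 6 (VEGF164) held 50.3% of the gene's TPM in replicate 2 and 40.9% in replicate 1. Their level was 43.3 TPM in replicate 2 and 18.7 TPM in replicate 1, with posterior intervals of 38.7 to 43.9 and 15.1 to 20.2 for the transcript that carried it. These intervals cover the assignment of reads within a library, not the scaling between libraries. The form with both exons, VEGF188, which stays at the cell surface and matrix, held 8.36% and 5.47%, at 7.20 and 2.50 TPM. Transcripts with a retained intron and no annotated coding sequence held 34.7% and 42.4% of TPM. These transcripts are short, and they held only 8.54% and 11.7% of the gene's counts, against 81.4% and 73.6% for VEGF164. Among coding transcripts alone, VEGF164 held 77.1% in replicate 2 and 71.1% in replicate 1.

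The second transcript table gave VEGF164 43.5% in replicate 2 and 41.0% in replicate 1, and VEGF188 10.1% and 8.41%. In both tables and both libraries VEGF164 was the leading coding form, and the ratio of VEGF188 to VEGF164 was higher in replicate 2 (0.166 and 0.134 in the first table, 0.232 and 0.205 in the second). The tables disagreed on the minor forms. VEGF120, the freely diffusible isoform, held 1.08% and 5.58% in the first table and 9.31% and 11.9% in the second. Its posterior intervals in the first table ran up to 3.99 TPM in replicate 2 and from 0.679 to 5.40 TPM in replicate 1, so its difference between libraries was not resolved. VEGF144, a form with exon 6 alone, held 5.54% and 5.62% in the first table, against 0.292% and 0% in the second.

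Flt1 RNA held the full-length receptor and the soluble decoy in an estimated proportion of about 2 to 1. The soluble form (13 exons, 688 codons) reads past the end of exon 13 into the following intron, where it stops, while the full-length form (30 exons, 1333 codons) joins exon 13 to exon 14. The sequences below show that fork. Each starts with the last 30 bases of exon 13 in lower case, and capitals mark the intron-derived tail to its stop codon (soluble, mm10 chr5:147639130-147639254, minus strand) or the start of exon 14 (full-length, joined over chr5:147634429-147639254), from GENCODE M21 transcripts.
Flt1 soluble end: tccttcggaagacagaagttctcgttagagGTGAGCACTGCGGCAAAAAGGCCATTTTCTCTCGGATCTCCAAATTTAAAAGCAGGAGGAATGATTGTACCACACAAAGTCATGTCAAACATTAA
Flt1 full-length: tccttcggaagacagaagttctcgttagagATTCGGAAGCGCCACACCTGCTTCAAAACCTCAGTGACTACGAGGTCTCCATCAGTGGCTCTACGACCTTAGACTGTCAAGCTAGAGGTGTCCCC
The soluble form stood at 3.53 TPM in replicate 2 and 2.87 TPM in replicate 1, with posterior intervals of 3.16 to 3.77 and 2.52 to 3.11. The full-length form stood at 7.86 and 5.64 TPM, with intervals of 7.29 to 8.10 and 5.17 to 5.90. The soluble form ends in sequence that is intron to the full-length form. In total RNA, the part of unspliced RNA in the soluble level was not tested.

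The soluble form held 29.2% of Flt1 TPM in replicate 2 and 28.3% in replicate 1 (mean 28.7% ± 0.615, SD, n = 2), and 30.1% and 28.8% in the second table. The ratio of soluble to full-length TPM was 0.449 in replicate 2 and 0.509 in replicate 1, and 0.438 and 0.502 in the second table. The full-length share was 65.0% and 55.6% in the first table. Noncoding Flt1 transcripts made up the rest, 5.87% in replicate 2 and 16.1% in replicate 1, of which 1 transcript of 12 exons held 4.13% and 12.7%. The second table listed that transcript at 0% and 6.20%.

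Vegfb is spliced into VEGF-B167, which binds heparin and stays near the cell, and VEGF-B186, which is freely secreted. They differ by 101 bases that VEGF-B186 keeps (mm10 chr19:6985496-6985596, minus strand, GENCODE M21), shown because this stretch shifts the reading frame of the end of the protein. The whole stretch is in capitals.
VEGF-B186 insert: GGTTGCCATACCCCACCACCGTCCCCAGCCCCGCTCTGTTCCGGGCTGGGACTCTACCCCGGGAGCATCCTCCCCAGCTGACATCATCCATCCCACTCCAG
VEGF-B167 stood at 56.9 TPM in replicate 2 and 37.8 TPM in replicate 1, which was 65.6% and 61.2% of the gene. VEGF-B186 stood at 29.7 and 23.9 TPM. The ratio of VEGF-B167 to VEGF-B186 was 1.91 in replicate 2 and 1.58 in replicate 1, with 1.83 and 1.61 in the second table. Both tables, made from the same reads, put it higher in replicate 2, but no interval was computed for it.

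**Figure D3:**
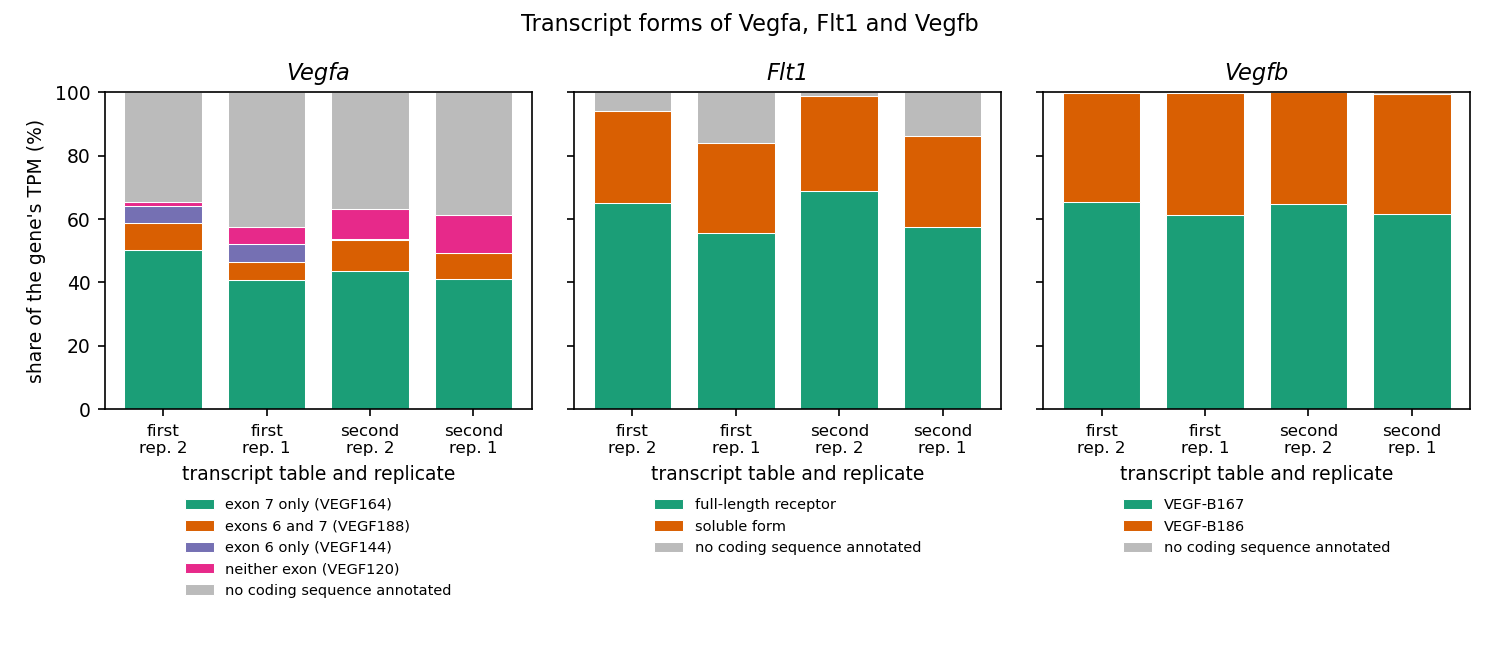
Share of each gene's TPM (percent) held by transcript forms of Vegfa, Flt1 and Vegfb, in the authors' first and second transcript tables, for replicate 2 and then replicate 1 (rep.). VEGF164, full-length Flt1 and VEGF-B167 lead the coding forms in all 4 bars of their genes, and VEGF120 ranges between 1.08% and 11.9%.

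The remaining genes had a single leading transcript or forms that the reads could not settle. The full-length Kdr transcript (1345 codons) held 97.9% of the gene's TPM in each library, and Cldn5 has 1 annotated transcript. The full-length Cdh5 transcript (784 codons) held 98.5% in replicate 2 and 100% in replicate 1. The only coding Angpt1 transcript (498 codons) held 86.6% and 97.6%, and a noncoding transcript held the rest. The coding Angpt2 transcript (496 codons) held 98% and 100% in the first table, and 55.3% and 93.4% in the second. Of the TIE2 transcripts, the leading one (23 exons, 1123 codons) held 71.7% and 61.3% of Tek TPM, while one with 22 exons and 1072 codons held 3.90% and 16.2%. The second table gave the 22-exon form 2.11% and 10.5%, in the same order of libraries. Posterior intervals of that form in the first table overlapped, at 0.00973 to 0.709 TPM in replicate 2 and 0.211 to 1.42 TPM in replicate 1. Pecam1 was divided differently by the tables. Its 727-codon transcript held 24.7% in replicate 2 and 22.8% in replicate 1 in the first table, and 43.5% and 35.3% in the second.

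The promoters of both VEGF receptor genes are given to set their letters side by side. They are reference sequence, and the CAST/EiJ alleles of the hybrids were not examined. The 250 bases before the annotated start come from RefSeq on GRCm38.p6, the assembly also called mm10, at chr5:75978456-75978705 for Kdr and chr5:147726012-147726261 for Flt1, both on the minus strand. Capitals mark GGAAG (the core bound by ETS factors), GGGCGG (the SP and KLF box) and TGACGTCA (the cAMP response element) on either strand, none of which contains another.
Kdr promoter: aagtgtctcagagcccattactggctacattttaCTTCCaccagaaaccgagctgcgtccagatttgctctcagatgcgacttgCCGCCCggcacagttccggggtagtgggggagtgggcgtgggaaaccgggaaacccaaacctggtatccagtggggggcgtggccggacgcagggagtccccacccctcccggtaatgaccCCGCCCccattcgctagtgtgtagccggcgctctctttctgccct
Flt1 promoter: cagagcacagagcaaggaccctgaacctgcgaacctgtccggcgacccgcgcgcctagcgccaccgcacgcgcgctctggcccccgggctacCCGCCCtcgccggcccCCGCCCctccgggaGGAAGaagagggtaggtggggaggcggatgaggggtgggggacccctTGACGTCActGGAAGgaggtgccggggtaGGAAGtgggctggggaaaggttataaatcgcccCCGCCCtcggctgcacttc
GGAAG occurred 1 time in the Kdr window and 3 times in the Flt1 window, and in 64.1% of 32851 RefSeq promoters of this length. GGGCGG occurred 2 and 3 times, and in 32.7% of all promoters. TGACGTCA occurred once in the Flt1 window, at −81 from the start, not in the Kdr window, and in 1.55% of all promoters. ACGTG, the core of the hypoxia response element, was searched as well and occurred in neither window, against 16.6% of all promoters. These matches describe letters only. RefSeq entries were matched for 6 of the 10 genes (Tek, Kdr, Flt1, Cldn5, Vegfa and Vegfb), and those of Angpt1, Angpt2, Pecam1 and Cdh5 were not used here.

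The other ligands of the VEGF family were scarce, while its coreceptor gene Nrp1 stood above Kdr in each library. Of the 6 further VEGF family genes, none was called, beside 4.4% of all genes toward replicate 2 and 1.66% toward replicate 1. Their median log2 ratio was 0.48. Nrp1, the neuropilin that serves as coreceptor of VEGF164, led with 12.2 TPM in replicate 2 and 8.25 TPM in replicate 1. Nrp2 had 3.38 and 1.98 TPM, and Flt4, the lymphatic VEGF-C receptor, had 1.66 and 1.16 TPM. The ligand genes Vegfc, Pgf and Vegfd each averaged 1.30 TPM or less, so Vegfa and Vegfb held most of the ligand RNA of the family. Among angiopoietin partners, the phosphatase gene Ptprb, whose product restrains TIE2, had 10.1 and 8.67 TPM and Tie1, the partner receptor, 6.04 and 4.48 TPM. None of the 3 of these 4 genes that passed the count filter was called, beside the same shares of all genes. Angpt4 was too low to test.

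Of 17 tested genes of VEGF receptor signalling, none was called and the median log2 ratio was 0.02. Most are used by all cells, and the abundant ones included the kinases Mapkapk2 (105.5 TPM in replicate 2 and 73.5 TPM in replicate 1) and Mapk14 (39.3 and 47.3 TPM). The list of 12 regulators of Vegfa held 1 call in each direction, beside 4.4% of all genes toward replicate 2 and 1.66% toward replicate 1. Egln3, an oxygen-sensing prolyl hydroxylase that is itself a target of hypoxia-inducible factors, was called higher in replicate 2, with 17.98 and 4.26 TPM (log2 ratio 2.02). Hif3a was called higher in replicate 1, with 0.27 and 1.37 TPM (log2 ratio −2.11). Epas1, which encodes HIF-2α, had 42.4 and 33.6 TPM, and the coactivator Ppargc1a, which induces Vegfa in muscle, 22.4 and 15.7 TPM. The most abundant regulators, Egln1 (75.9 and 59.8 TPM), Hif1an (50.7 and 55.9 TPM) and Egln2 (45.5 and 52.7 TPM), were not called.

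Of 18 endothelial markers outside the axis 1 was called, the apelin receptor gene Aplnr, with 1.39 TPM in replicate 2 and 0.51 TPM in replicate 1 (log2 ratio 1.12), a share near the 4.4% of all genes called toward replicate 2. The list's median log2 ratio was 0.22, 16 of the 18 ratios were above 0 beside 50.8% of all genes, none of the 18 was at 0 TPM, and the summed level was 132.5 TPM in replicate 2 and 107.4 TPM in replicate 1. Gpihbp1, which anchors lipoprotein lipase in capillaries, had 19.2 and 15.6 TPM, and Cd34 15.6 and 11.7 TPM. The 6 endothelial receptor and junction members together had 61.5 TPM in replicate 2 and 42.1 TPM in replicate 1, with a median log2 ratio of 0.49. Of 15 endothelial transcription factors, 13 had ratios above 0, beside 50.8% of all genes, and none was called higher in replicate 2. Foxo1, which many cells including fibres use, was the 1 call toward replicate 1, beside 1.66% of all genes, with 6.75 and 13.6 TPM. Klf4, a flow-responsive factor, had 19.5 and 9.82 TPM, just short of 2-fold at a log2 ratio of 0.95, and the most abundant of the list, Mef2c, had 222.4 and 178.7 TPM and is also a muscle factor.

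Of 14 tested junction partners 1 was called, beside 4.4% of all genes. The adhesion molecule gene Jam3 was higher in replicate 2, with 3.86 TPM in replicate 2 and 1.94 TPM in replicate 1. The catenin genes Ctnnb1 (91.4 and 85.2 TPM), Jup (30.9 and 25.4 TPM) and Ctnna1 (23.96 and 19.6 TPM), whose products bind VE-cadherin and other cadherins, were not called. Of 10 arteriovenous and Notch genes none was called, with a median log2 ratio of 0.40. The venous factor gene Nr2f2 had 10.6 and 9.38 TPM and the venous receptor gene Ephb4 6.06 and 4.34 TPM. The lymphatic list had 1 call of 6, beside the same 4.4%, in Prox1, the lymphatic identity factor, which slow muscle also expresses, with 1.28 and 0.38 TPM, while Lyve1 had 2.75 and 2.68 TPM and Ccl21a 5.64 and 4.03 TPM.

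Markers of the other cells of the vessel wall and blood were read beside these values. Of 12 mural cell genes, Kcnj8 (3.12 TPM in replicate 2 and 1.30 TPM in replicate 1) and Cnn1 (2.72 and 0.99 TPM) were called higher in replicate 2, beside 4.4% of all genes, and the list median was 0.54. Rgs5, a pericyte gene, had 79.2 and 59.6 TPM, and Abcc9, which fibres also use, 50.8 and 60.0 TPM. No gene was called among 9 fibroblast genes (summed 300.5 and 315.9 TPM, median 0.14), 9 leukocyte genes (44.4 and 38.9 TPM, median 0.22), 5 red cell genes (483.1 and 370.5 TPM, median 0.21) or the 2 platelet genes tested of 5 (list sum 6.86 and 6.13 TPM). The platelet gene Pf4 held most of that list's sum, with 6.39 TPM in replicate 2 and 5.44 TPM in replicate 1. Gp9 was at 0.04 and 0 TPM, and Itga2b at 0.27 and 0.68 TPM. The part of these cells in the members' ratios was not tested.

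**Figure D4:**
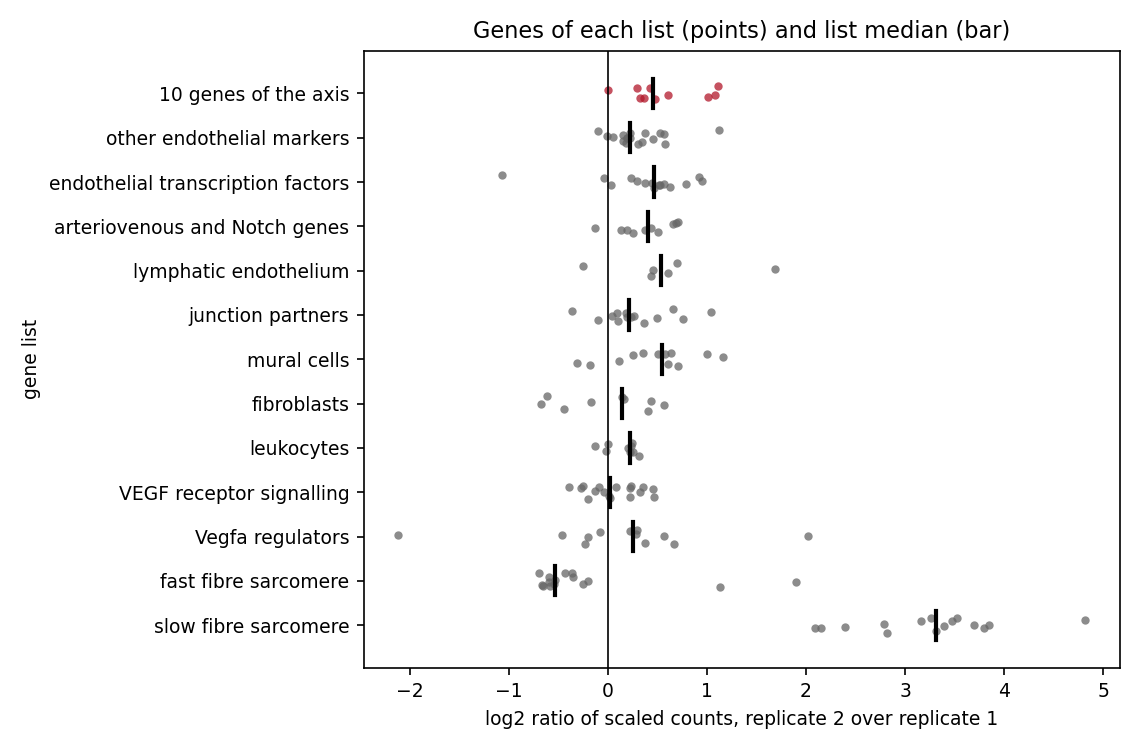
Log2 ratio of scaled counts, replicate 2 over replicate 1, for the tested genes of each list (points) with the list median (bar). The 10 genes of the axis have a median of 0.46, other endothelial markers 0.22, mural cell genes 0.54, fast sarcomere genes −0.53 and slow sarcomere genes 3.31. Of the 15 fast sarcomere genes, 2 lie above 0.

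The authors' 2 quantifications of the same reads gave close gene counts for the axis. The gene table count divided by the summed counts of the second transcript table had a median of 0.940 in replicate 2 and 0.939 in replicate 1 over the members, with a range of 0.881 to 1.06. Over 14541 genes the medians were 0.943 and 0.941. Levels were higher in the second table, as for Vegfa with 116.8 TPM in replicate 2 and 59.9 TPM in replicate 1, where Rn7s was listed at 0 in replicate 2 and near 0 in replicate 1. The deposited posterior SD of the gene count was 0 for all 10 members, the value listed where no reads are shared out between genes. In the annotation Angpt1 is the only member whose exons overlap those of another gene.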

How the data were processed

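Total RNA was sequenced from 2 gastrocnemius libraries, on mm10 with GENCODE annotation M21, per the labels and the file lists deposited beside the data. Which aligner and programs were run is not given in the sources used here. By those lists, the authors derived the gene table and a first transcript table by aligning reads to the transcriptome, and a second transcript table from unaligned reads. Their deposited expected counts and estimated counts are reads per gene or transcript, shared out where a read fits several, per the file headers. TPM values as deposited divide by effective length and sum to the same total in each library, spike-ins included. The deposited percent of isoform use and posterior bounds stand beside them, per the file headers. Hybrid reads were placed on the reference assembly, and loss of CAST/EiJ reads was not tested.

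Counts were rounded, scaled by TMM (edgeR 4.0.16, R 4.3.3) and compared between libraries with a 2-sided exact binomial test (scipy 1.17.1) over 14965 annotated genes averaging 10 counts or more. Fold changes used scaled counts + 0.5, and counting intervals were exact binomial at 95% without it. They cover counting error only, since reads are not independent molecules. edgeR's quasi-likelihood test could not be run on 1 group. The test was also run on data simulated with counting error alone, which cannot check it against spread between samples. Forms of Vegfa, Flt1 and Vegfb were read from the annotated exons and coding sequences. The alternatives were DESeq2 1.42.0 size factors, total counts, ERCC spike-ins, other count filters, another fold limit, another pseudocount, the second quantification and single libraries. The members and gene lists were chosen with earlier results of these data known. All 10 members are described, and of each list the text names the 2 to 4 of highest mean TPM and each called gene, except that not every gene the rule takes is reported here. Further genes of the lists (Klf4, Ppargc1a, Epas1, Nrp2, Flt4, Vegfc, Vegfd, Pgf, Gp9, Itga2b, Angpt4) were named after their values were seen. Of the slow, fast, immediate early, fibroblast, leukocyte and red cell lists only counts, sums and medians are given.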

Additional observations from a re-analysis of the deposited data

How the results depend on the processing

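Vegfa and Kdr were called under each of the 9 settings run with the count test, and Cldn5 under all but the second quantification, where its log2 ratio was 0.95. With log2(TPM + 0.5), which has no test, Vegfa (0.91) and Cldn5 (0.99) lay under 2-fold. At a 1.5-fold limit Pecam1 joined them, against 7.74% of all genes. Of 79 alternative values of the members' ratios, 4 changed sign, all of Angpt2. The median log2 ratio of the members was 0.46 and became 0.68 with ERCC scaling, which put the median of all genes at 0.23, 0.53 with log2(TPM + 0.5), and 0.57 as a mean. Angpt2 turned above 0 with total counts (0.042), ERCC scaling (0.22), no count filter (0.0025) and log2(TPM + 0.5) (0.029). The members' summed TPM averaged 196.1, against 440.0 when rescaled to protein-coding genes and 268.1 in the second table, and was 152.9 or 239.3 in a single library. The mean VEGF164 share of 45.6% (40.9% to 50.3% in single libraries) was 74.1% among coding transcripts. VEGF188 held 6.92% (5.47% to 8.36%), against 9.24% in the second table and 11.2% among coding transcripts. VEGF120 held 3.33% (1.08% to 5.58%), against 10.6% in the second table. Soluble Flt1 held 28.7% (28.3% to 29.2%), against 29.4% in the second table and 32.4% among coding transcripts. The median count ratio of the tables, 0.939 (0.939 to 0.940), was 0.920 after division by totals. The cause of these shifts was not tested. Depth limits Angpt2 and Cldn5 most. No paired analysis was possible because the series has 1 group.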
